A study of Caenorhabditis elegans with 8 samples.

Results

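The genes described here are the short noncoding RNA genes of Caenorhabditis elegans that gave a clear signal on a whole-transcript expression array. A feature, the array's unit of measurement for a transcript, was included when it carried exactly 1 gene symbol, when RefSeq gave its gene a type other than protein-coding or pseudogene, when the annotated gene length lay between 50 and 200 bases, and when its mean log2 intensity over the 8 arrays was above 5. Of 4737 features that met the first 3 conditions, 199 features of 196 genes passed the level threshold, which is 4.2%, and the whole table held 27792 features. RefSeq typed 192 of the 199 features as ncRNA without a named class, 4 as rRNA, 1 as microRNA, 1 as snoRNA and 1 as snRNA. The gene F23F12.15 was represented by 4 features with near-identical values, and these are given once unless features are counted.

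Eggs of 4 strains were raised for 3 days into young adults on bacteria for RNAi, and total RNA of whole worms was measured with 1 Affymetrix Gene 1.0 ST array for worms per strain and treatment. The bacteria carried either ash-2 RNAi or control RNAi, and all strains were kept at 20 °C. The labels place RNAi in the intestine for VP303, muscle for NR350, neurons for TU3401 and, for wild-type N2, the whole body. As background, VP303 and NR350 lack working rde-1, an Argonaute needed for RNAi, and carry rde-1 under the intestinal nhx-2 and the muscle hlh-1 promoter, VP303 with a rol-6 marker and NR350 with a sur-5::GFP marker. TU3401 lacks sid-1, the importer of double-stranded RNA, and carries sid-1 under the neuronal unc-119 promoter.

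Each group of strain and treatment had 1 array, no label names separate cultures, and the 4 strains were the only repeats of the treatment. The tissue in a label names where RNAi works, not what was sampled: markers of muscle (4 of 4), germ line (3 of 3), intestine (3 of 4), neurons (3 of 4) and epidermis (1 of 3) were above a log2 intensity of 5 on all 8 arrays. Signal of ash-2 itself, a subunit of the complexes that methylate histone H3 at lysine 4, was 7.52, 7.87, 8.07 and 7.63 on the arrays labelled ash-2 of N2, VP303, NR350 and TU3401, against 7.23, 7.21, 7.19 and 6.94 on their control arrays. It was higher under the ash-2 label in all 4 strains, by 0.63 ± 0.25 (SD over 4 strains, limma adjusted p = 0.302). The source of this difference was not tested, so these arrays are named by their label and not as a knockdown. In whole animals, fewer cells of a type and less RNA per cell cannot be told apart.

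Short noncoding RNAs work as RNA and are not translated. Small nucleolar RNAs guide chemical modification of ribosomal RNA, spliceosomal snRNAs form the core of the splicing machinery, 5S and 5.8S rRNA are parts of the large ribosomal subunit, RNase MRP RNA is the RNA of an enzyme that cuts precursor ribosomal RNA, transfer RNAs carry amino acids to the ribosome, and microRNAs direct repression of messenger RNAs. Many of these genes are transcribed by RNA polymerase III or lie in introns of protein-coding genes, and their mature products have no long poly(A) tail.

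The level threshold of 5 corresponds to an intensity of 32, and intensities ran between 18.01 and 12880 over the whole table. The mean level chose these features, so the levels are a description, and since intensity depends on each feature's own probes, levels are not compared between genes. Just inside the threshold were C35C5.14 at 5.001, Y53C10A.18 at 5.006 and F08G2.14 at 5.012, and just outside it F53B3.12 at 4.99, C04C11.13 at 4.985 and a further gene at 4.982. Annotated lengths ran from 50 bases in Y67D2.10 to 197 bases in F23H12.17, with 9 features at 150 and 8 at 148 bases. On the chromosomes, X carried 49 of the 196 genes, V 41, II 38, III 25, I 23 and IV 20.

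Most of these genes overlap another gene in the RefSeq table of assembly WBcel235. Of 196 genes, 78 overlapped a protein-coding gene, 26 a tRNA gene, 14 a snoRNA gene, 2 an snRNA gene and 2 a microRNA gene, 45 overlapped another ncRNA gene, and 63 overlapped no other gene; a gene can be in more than 1 of these counts. For 23 genes another gene was annotated on exactly the same interval. Features on the same interval did not always move together: over the 8 arrays r was -0.15 for F23F12.15 with F23F12.16 and 0.76 for F26H11.9 with F26H11.10. The table holds no strand and the sources used here do not state the strand of the array's probes. Whether a member's signal came from that gene or from a gene it overlaps therefore cannot be told. The same holds for members of multicopy families, such as the 5S rRNA genes and genes in tRNA loci, whose near-identical copies can share signal.

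The first question is whether the arrays labelled ash-2 differed from the control arrays in a way that the 4 strains shared. In a limma fit with the strain as a block and Benjamini-Hochberg adjustment over all 27792 features, 0 of 199 short noncoding features passed an adjusted p of 0.05, and 0.0% of all features did. At an unadjusted p under 0.05, 54 of the 199 were lower on the arrays labelled ash-2 and 2 were higher, where 5.87% of the 8648 features with a mean log2 above 5 were lower and 8.3% were higher. The mean difference over strains was below 0 for 154 of 199 features, with a median of -0.11, against a median of 0.03 over the 8648 features. Without TU3401, 6 short noncoding features passed the test, all lower: F52H3.10, W03A3.4, F56A12.5, F54F7.12, M163.12 and M163.15. In that fit 0.278% of features above 5 were lower, and with N2, VP303 or NR350 left out 0 short noncoding features passed.

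Strain by strain, the median differences of the 199 features, labelled ash-2 minus control, were -0.13 for N2, -0.20 for VP303, -0.06 for NR350 and -0.06 for TU3401, against 0.04, 0.04, -0.01 and 0.03 over the 8648 features. A difference in the same direction in all 4 strains was found for 37 features on the lower side and 4 on the higher side, where 7.2% of features above 5 were lower and 13.7% higher in all 4. Other classes of feature were not all centred on 0: the median was -0.02 for 54 noncoding features longer than 200 bases, -0.14 for 337 features with no gene symbol and 0.04 for 7694 protein-coding features.

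**Figure D1:**
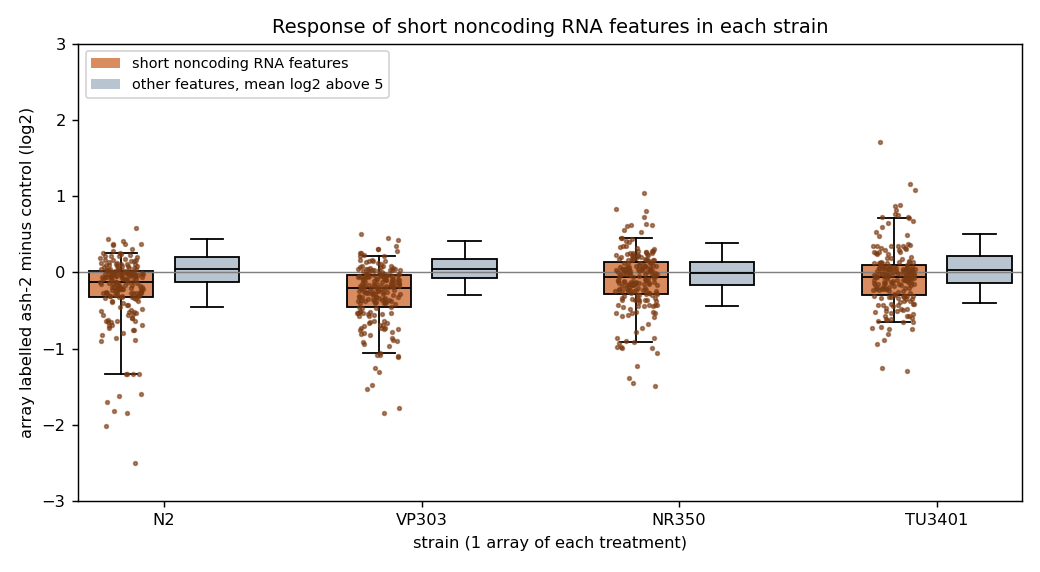
Difference between the array labelled ash-2 and the control array of each strain (log2, vertical axis) for the 199 short noncoding RNA features (orange boxes, points are features) and for all other features with a mean log2 above 5 (grey boxes). Boxes span the quartiles with the median as a line and whiskers reach the 5th and 95th percentiles; the orange medians are -0.13, -0.20, -0.06 and -0.06, and the longest lower tails are those of N2 and VP303.

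The plot of differences by strain shows the short noncoding features below the other features in each strain, with the gap widest in VP303 and N2. At least 2-fold lower signal was found for 11 features of N2, 11 of VP303, 5 of NR350 and 2 of TU3401, where 0.983%, 1.03%, 0.335% and 0.243% of features above 5 were as far down. The near-identical features of F23F12.15 are each counted in N2 and VP303, where this gene differed by -1.34 and -1.09, so the genes are fewer. At least 2-fold higher signal was found for 0, 0, 1 and 3 features, where the shares over features above 5 were 0.139%, 0.139%, 0.127% and 0.173%. Among the 337 features with no gene symbol, the numbers at least 2-fold lower were 57 for N2, 72 for VP303, 5 for NR350 and 8 for TU3401, so this tail was not particular to short noncoding RNAs. These within-strain differences compare 1 array with 1 array and have no test.

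The differences were also set against gene length. The 84 features of 50 to 100 bases had a median difference over strains of -0.24, the 92 above 100 and up to 150 bases one of -0.07 and the 23 above 150 bases one of -0.09. All 22 of the 2-fold lower values in N2 and VP303 belonged to features of at most 100 bases. They include each near-identical feature of F23F12.15, a gene of 73 bases, in both strains, so they are not 22 separate cases. Among features of 50 to 100 bases the strain medians were -0.27 for N2, -0.43 for VP303, -0.16 for NR350 and 0.0025 for TU3401. Level also moved with the difference: the 36 features with a mean log2 above 7 had a median of -0.33, the 30 between 6 and 7 one of -0.19 and the 133 between 5 and 6 one of -0.08. The part of either in the result was not tested.

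**Figure D2:**
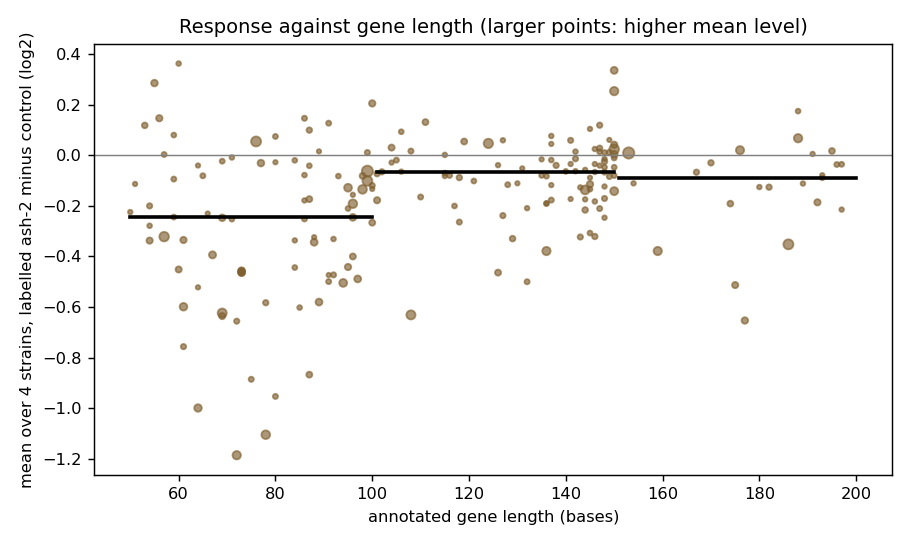
Mean difference over the 4 strains, labelled ash-2 minus control (log2, vertical axis), against annotated gene length in bases (horizontal axis) for the 199 features, with larger points for higher mean levels. Black lines are the medians of the 3 length ranges, -0.24, -0.07 and -0.09, and the points below -0.7 all lie at lengths under 100 bases.

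Grouping the 196 genes by the kind of gene they overlap gave 2 patterns; the grouping was made after the values were seen and carries no test. The 16 genes that overlap a snoRNA or snRNA gene were lower on the arrays labelled ash-2 in the mean over strains in 16 of 16 cases, with means between -0.95 and -0.08 and a median of -0.36, and 10 of the 16 were lower in all 4 strains. Their strain medians were -0.37 for N2, -0.24 for VP303, -0.40 for NR350 and -0.22 for TU3401. None of them passed the test. Over all 199 features, 77.4% were lower in the mean over strains. This group also had the highest median level, 6.56 against 5.39 to 5.63 in the other kinds, and the part of level was not tested.

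The 26 genes that overlap a tRNA gene were lower in 23 cases in N2, 25 in VP303 and 22 in NR350, but in 7 in TU3401. Near-identical copies can share signal, so these are not 26 independent cases: over the 8 arrays r was 0.94 for Y7A5A.14 with Y7A5A.15 and 0.94 for H35N09.3 with H35N09.4. Medians of the 26 genes were -0.34, -0.67 and -0.32 in N2, VP303 and NR350, and 0.23 in TU3401. Genes that overlap only a protein-coding gene (39 genes) had a median over strains of -0.07, and those that overlap no other gene (63 genes) one of -0.06. The remaining 52 genes, over another noncoding gene or a pseudogene, had a median of -0.10.

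**Figure D3:**
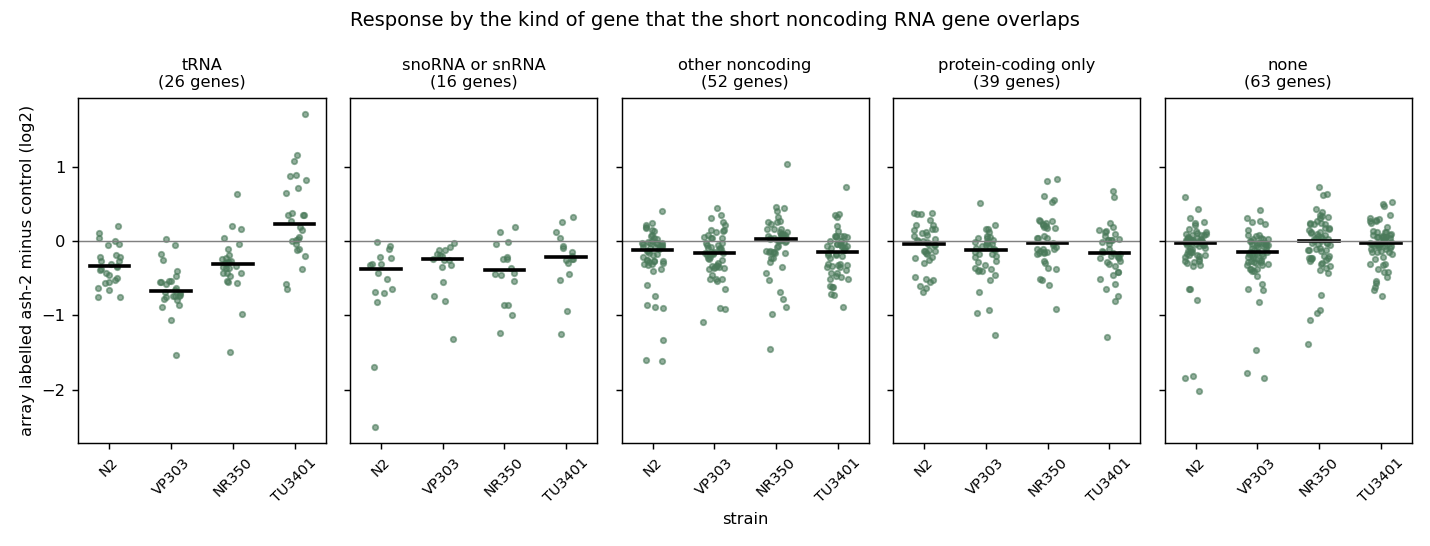
Difference between the array labelled ash-2 and the control array (log2, vertical axis) in each strain for genes grouped by the kind of gene they overlap; each point is 1 gene and black lines are medians. In the tRNA group of 26 genes the medians are -0.34, -0.67 and -0.32 in N2, VP303 and NR350 and 0.23 in TU3401, while the snoRNA or snRNA group of 16 genes has a median below 0 in all 4 strains.

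Among single genes of the snoRNA and snRNA group, T19B4.9, which overlaps the snoRNA gene T19B4.8, had the largest drop within a strain of all 199 features. Its log2 intensities were 5.16, 5.05, 4.72 and 5.25 on the arrays labelled ash-2 of N2, VP303, NR350 and TU3401, against 7.66, 6.36, 4.96 and 4.998 on the control arrays. The high values were thus confined to the control arrays of N2 and VP303, and the other 6 arrays lay close together. The difference was -2.50 in N2 and -1.31 in VP303, with a mean over strains of -0.95 ± 1.22 (SD, n = 4; limma adjusted p = 0.531).

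C18A3.14, over the snoRNA gene C18A3.12, was 6.99, 6.40, 4.97 and 6.37 on the arrays labelled ash-2, against 7.51, 7.14, 5.96 and 6.67 on the control arrays, in the order N2, VP303, NR350 and TU3401. It was lower in every strain, by -0.64 ± 0.30 in the mean (SD, n = 4; limma adjusted p = 0.302), although the treatments overlap across strains, and both NR350 arrays were lower than their counterparts in the other strains. Y23H5B.13, over the snoRNA gene Y23H5B.10, was 6.97 on the array labelled ash-2 against 8.67 on the control array in N2, and its differences in the other strains lay between -0.23 and -0.18. T27E4.15, whose interval contains or meets the snRNA genes T27E4.22 and T27E4.12, was lower in all 4 strains with its largest difference, -1.25, in TU3401.

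H27M09.7, over the snRNA gene H27M09.6, had a like strain order, with -0.94 in TU3401 and -0.86 in NR350 against -0.20 in VP303 and -0.06 in N2. The 2 features typed as snRNA and snoRNA themselves stand beside this group. C05D2.15, the snoRNA, was lower in every strain, at 6.44, 6.26, 5.54 and 6.22 on the arrays labelled ash-2 against 6.97, 6.59, 6.14 and 6.63 on the control arrays. Its mean difference was -0.46 ± 0.12 (SD, n = 4; limma adjusted p = 0.303), a narrow spread over strains beside those of T19B4.9 and C18A3.14.

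F56A12.5, the snRNA, was 10.05, 9.60, 8.32 and 10.23 on the arrays labelled ash-2, against 10.84, 10.42, 9.71 and 9.75 on the control arrays. Signal was thus lower in N2, VP303 and NR350 and higher in TU3401. The mean difference was -0.63 ± 0.79 (SD, n = 4; limma adjusted p = 0.539), and it was among the 6 that passed without TU3401.

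Of the genes in tRNA loci, C04E7.7 had the largest difference upward within a strain. Its log2 intensities were 4.96, 5.06, 5.07 and 6.41 on the arrays labelled ash-2 of N2, VP303, NR350 and TU3401, against 5.72, 5.84, 4.87 and 4.70 on the control arrays. The TU3401 array labelled ash-2 was the highest of the 8, and the control array of the same strain was the lowest. K03F8.3, also inside acr-5, and K11H3.11, also inside twk-48, were at 7.36 and 7.38 on the TU3401 array labelled ash-2, against 6.21 and 6.30 on the TU3401 control array, and below their controls in the other 3 strains.

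Y54G2A.70 showed the other side of the tRNA group. It was 5.99, 5.99, 5.03 and 6.20 on the arrays labelled ash-2, against 6.44, 7.52, 6.52 and 6.19 on the control arrays. The difference was -1.53 in VP303 and -1.495 in NR350, smaller in N2 (-0.45) and near 0 in TU3401 (0.013), and the mean difference was -0.87 ± 0.77 (SD, n = 4; limma adjusted p = 0.417). Y51H7BR.9 and Y7A5A.15, in different tRNA loci, had nearly the same differences in every strain, with -0.21 and -0.21 in N2, -0.74 and -0.74 in VP303, -0.48 and -0.43 in NR350, and 0.89 and 0.87 in TU3401. Whether both features read a shared signal of near-identical copies was not tested.

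Further genes without a named RNA class made up the rest of the lower tail. M163.12 was 9.51, 9.04, 7.504 and 8.93 on the arrays labelled ash-2 of N2, VP303, NR350 and TU3401, against 11.33, 10.82, 8.56 and 8.68 on the control arrays. Its neighbour M163.15, with no gene between them, was 8.67, 8.75, 7.24 and 8.55, against 10.69, 10.60, 8.16 and 8.50. For both, the control arrays of N2 and VP303 stood above the other 6 arrays, and their 8 values correlated at r = 0.98. The mean differences were -1.104 ± 0.97 and -1.19 ± 0.95 (SD, n = 4), with limma adjusted p = 0.386 for M163.12 and 0.356 for M163.15.

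F08G2.13, which overlaps no other gene, was 5.55, 5.06, 4.95 and 4.92 on the arrays labelled ash-2, against 7.40, 6.53, 5.29 and 4.80 on the control arrays. Again the control arrays of N2 and VP303 were the high ones. F23F12.15, which shares its interval with F23F12.16 inside F23F12.3, was 7.54, 6.33, 6.33 and 7.12 on the arrays labelled ash-2, against 8.88, 7.42, 6.49 and 6.39 on the control arrays, with a reversed sign in TU3401. The F23F12.16 feature had a mean log2 of 4.32, below the level threshold, and correlated with F23F12.15 at r = -0.15 over the 8 arrays.

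F26H11.9 was lower in all 4 strains, and of the features with this pattern it had the largest mean difference. It measured 8.20, 7.78, 6.33 and 7.21 on the arrays labelled ash-2, against 9.80, 8.11, 7.78 and 7.83 on the control arrays. The mean difference was -0.999 ± 0.62 (SD, n = 4; limma adjusted p = 0.302). F26H11.10 lies on the same interval, inside the protein-coding F26H11.4, whose own feature differed by 0.10 ± 0.08 in the mean.

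F52H3.10 and Y47H9A.4 had the lowest adjusted p-values of the shared fit, 0.107 each. F52H3.10, inside ZK892.5, was 5.42, 5.70, 4.91 and 5.23 on the arrays labelled ash-2, against 6.31, 6.34, 5.80 and 5.83 on the control arrays, which put each strain's treated array below every control array. Its mean difference was -0.76 ± 0.16 (SD, n = 4), and it passed when only features with exactly 1 symbol were tested, where 0.0125% of such features above 5 were lower. Y47H9A.4, which shares its interval with Y47H9A.3, was 9.52, 9.78, 9.07 and 9.70, against 10.42, 10.31, 9.51 and 10.32, a mean difference of -0.62 ± 0.20 (SD, n = 4).

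On the higher side, CE7X_3.3, over the pseudogene CE7X_3.4, led the 4 features with a higher signal in all strains. It was 7.43, 7.55, 7.50 and 7.24 on the arrays labelled ash-2, against 7.02, 7.10, 7.33 and 6.92 on the control arrays, and the groups overlap by the NR350 control and the TU3401 treated array. The mean difference was 0.34 ± 0.12 (SD, n = 4; limma adjusted p = 0.504). K10C3.8, F43C9.8 and F43D9.8 differed by 0.17, 0.13 and 0.12 in the mean, none past the test.

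The structural RNAs of the ribosome had small differences between treatments. Of the 4 rRNA features, rrn-2.1, a 5.8S rRNA gene, lay between 13.16 and 13.35 on the arrays labelled ash-2 and between 13.18 and 13.34 on the control arrays. The 5S genes rrn-4.5, rrn-4.4 and rrn-4.3 had mean differences of -0.06, -0.10 and 0.05. The RNase MRP RNA gene mrpr-1 was 11.52, 11.18, 9.95 and 11.58 on the arrays labelled ash-2, against 12.16, 11.56, 10.38 and 11.54 on the control arrays, lower in N2, VP303 and NR350 by 0.38 to 0.64, with 0.04 in TU3401 (mean -0.35 ± 0.29, SD, n = 4; limma adjusted p = 0.418). The single microRNA gene, mir-8192, inside flcn-1, differed by -0.18 ± 0.28 (SD, n = 4).

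**Figure D4:**
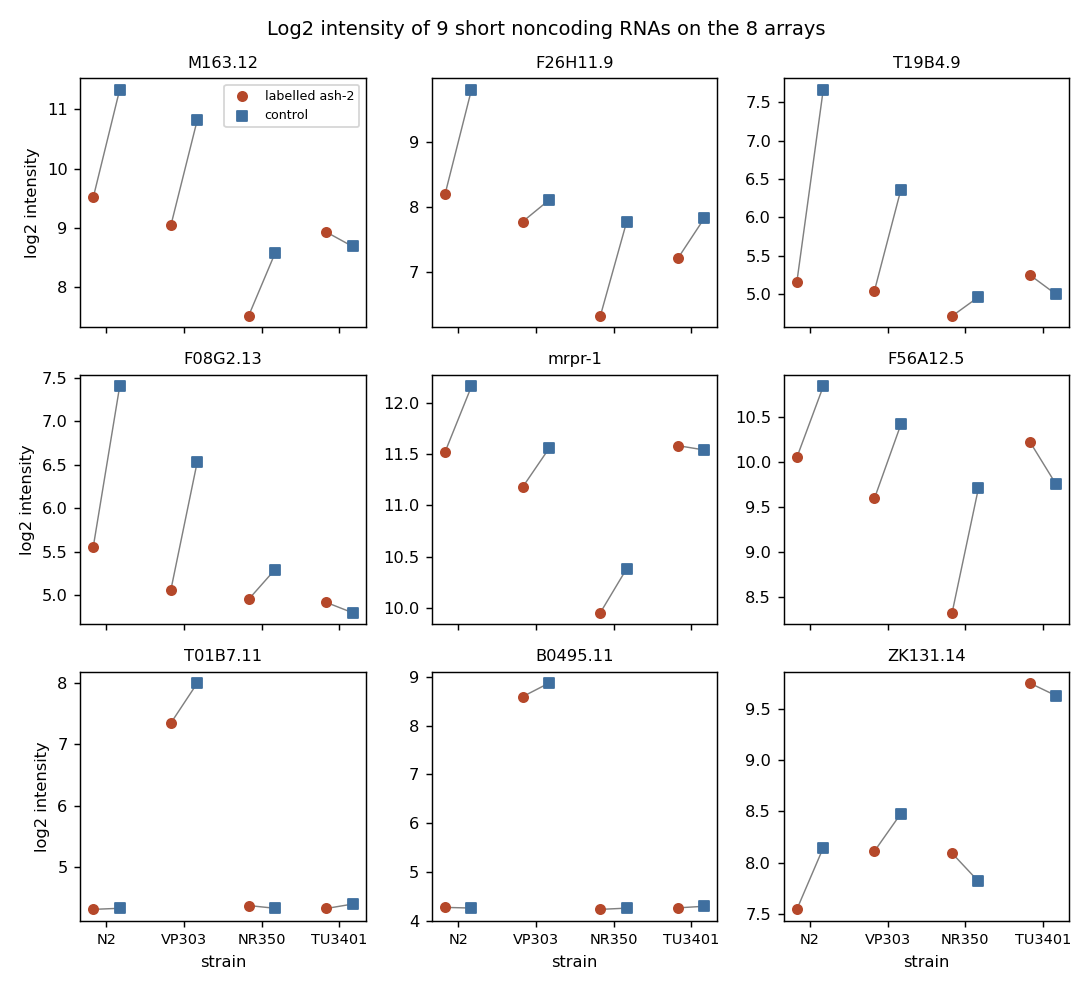
Log2 intensity (vertical axes, each panel with its own range) of 9 short noncoding RNA genes on the 8 arrays, by strain; red circles are the arrays labelled ash-2, blue squares the control arrays, and grey lines join the pair of a strain. For M163.12, T19B4.9 and F08G2.13 the control arrays of N2 and VP303 are highest, mrpr-1 and F56A12.5 are lowest in NR350, T01B7.11 and B0495.11 are high in VP303 alone, and ZK131.14 is highest in TU3401.

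The pairs of arrays drawn for single genes lead to a second comparison. By the labels RNAi reaches the intestine in N2 and VP303 and not in NR350 and TU3401, and the response of the first 2 strains was set against that of the other two. In this fit, 0 of 199 features passed, as did 0.0% of all features. At an unadjusted p under 0.05, 29 were lower (the response of N2 and VP303 below that of NR350 and TU3401) and 5 higher, where 2.82% and 4.15% of features above 5 were. The lowest adjusted p, 0.082, belonged to F08G2.13 with a difference in response of -1.55, followed by T19B4.9 with -1.91 (adjusted p = 0.0997).

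M163.15 and M163.12 differed by -1.49 and -1.39, F23F12.15 by -1.50, B0273.111 by -0.96 and C04E7.7 by -1.73. On the opposite side Y62F5A.15, over the microRNA gene mir-39, had 0.84, H27M09.7 0.77, C34E11.9 0.66, F33A8.11 0.63, C05D2.17 0.47 and mir-8192 0.39. This contrast rests on 2 strains a side and depends on them: 5 features passed on the lower side without N2, 11 without VP303, 11 without NR350 and 0 without TU3401, each time with the lone strain of a side assumed to vary like the others. Over features above 5, the lower shares in these fits were 0.37% without N2, 0.358% without VP303, 0.254% without NR350 and 0.0% without TU3401. With only features above a mean log2 of 5 tested, 8 passed, where 0.636% of them were lower.

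Between strains, each strain's pair of arrays was compared with that of N2 in a fit with the treatment as a term. In VP303, 3 short noncoding features were higher than in N2 and 1 was lower, where 1.35% of features above 5 were higher and 0.509% lower. B0495.11 measured 8.60 and 8.88 in VP303 (labelled ash-2, then control), against 4.27 and 4.26 in N2, and lay between 4.23 and 4.29 in NR350 and TU3401. T01B7.11 measured 7.35 and 8.003 in VP303, against 4.31 and 4.32 in N2, and between 4.32 and 4.39 in the other strains. Both genes were thus high on the 2 VP303 arrays and close to the lowest values of the table on the other 6. They passed the level threshold only through the VP303 arrays. Both therefore entered this set through the same values that make them higher in VP303, and their place in the count of 3 is no separate support.

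B0495.11 was higher by 4.48 ± 0.12 (SE of the fit; limma adjusted p = 7.7e-09) and T01B7.11 by 3.36 ± 0.16 (SE; limma adjusted p = 2.4e-06); with N2 close to the floor of the scale, both differences are understated. Neither overlaps another gene. T01B7.11 is next to rol-6, a cuticle collagen used as the marker of that strain, whose feature was 12.16 in VP303 against 4.64 in N2 in the mean of 2 arrays, higher by 7.52 ± 0.15 (SE; limma adjusted p = 8.2e-10). B0495.11 lies between nhx-2, an intestinal sodium-proton exchanger whose promoter drives rde-1 in VP303, and B0495.5. B0495.5 was higher in VP303 by 1.59 ± 0.14 (SE; limma adjusted p = 0.00045), whereas nhx-2 differed by 0.23 ± 0.12 (SE; limma adjusted p = 0.64).

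The third gene that rose in VP303, Y51B9A.13, inside Y51B9A.5 and over a tRNA pseudogene, was 7.76 and 8.67 in VP303 (labelled ash-2, then control), against 6.91 and 6.76 in N2, a difference of 1.38 ± 0.24 (SE; limma adjusted p = 0.025). W03A3.4, inside rev-3, was 7.23 and 8.16 in VP303, against 8.63 and 9.32 in N2, a fall of 1.28 on the log2 scale (limma adjusted p = 0.039). Its groups do not overlap, and W03A3.4 was also lower in NR350. Without TU3401, the 4 features of F23F12.15 were lower in VP303 as well, which made 5, where 0.659% of features above 5 were lower. Without NR350, C12D8.24 and T04C12.30 were higher too, which also made 5, where 1.34% were higher. Without a variance trend in the fit 2 features were higher and 0 lower, where 0.358% and 0.116% were.

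NR350 differed from N2 in more short noncoding features than either other strain, and the same held over all features above 5. There, 1548 were called in NR350, 161 in VP303 and 129 in TU3401. In NR350 15.1% of the short noncoding features and 17.9% of all features above 5 were called, so the number was not particular to them. Of the short noncoding features, 26 were lower, of 23 genes, and 4 were higher, where 8.79% and 9.11% of features above 5 were. The lower set holds named RNAs of RNA processing. The RNase MRP RNA mrpr-1 was 9.95 and 10.38 in NR350 (labelled ash-2, then control), against 11.52 and 12.16 in N2, a difference of -1.68 ± 0.13 (SE; limma adjusted p = 2.9e-05), with 11.18 and 11.56 in VP303 and 11.58 and 11.54 in TU3401. Both NR350 arrays lay below all 6 others.

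The snRNA F56A12.5 was 8.32 and 9.71 in NR350 against 10.05 and 10.84 in N2 (-1.43 ± 0.31, SE; limma adjusted p = 0.019), and the snoRNA C05D2.15 was 5.54 and 6.14 against 6.44 and 6.97 (-0.86 ± 0.14, SE; limma adjusted p = 0.0034). C18A3.14 over a snoRNA gene fell by 1.79 (limma adjusted p = 0.00014), with both NR350 arrays below both N2 arrays. Y23H5B.13, K07C5.17 and Y37E3.28, also over snoRNA genes, fell by 1.60, 0.80 and 0.48. In all, 5 of the 16 genes over a snoRNA or snRNA gene were lower in NR350, and the group's median difference was -0.57. The 26 genes over a tRNA gene had a median of -0.33 with 2 lower. The 63 genes that overlap no other gene had one of 0.04 with 6 lower and 1 higher. Median levels of these groups, in the same order, were 6.56, 5.53 and 5.51. The difference also moved with level: features with a mean log2 above 7 had a median of -0.44, with 14 of 36 lower and 1 higher. Those between 5 and 6 had one of 0.03, with 8 of 133 lower and 2 higher. The part of level was not tested.

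The largest drops in NR350 were in genes of no named class. M163.12 fell by 2.39 ± 0.38 (SE; limma adjusted p = 0.0032), M163.15 by 1.98, F26H11.9 by 1.95 and F23F12.15 by 1.80, and for these 4 genes the difference of TU3401 from N2 was also below 0, at -1.62, -1.16, -1.48 and -1.46, of which F26H11.9 passed the test (limma adjusted p = 0.043). F26H11.10, on the interval of F26H11.9, differed by -0.58 in NR350 (limma adjusted p = 0.33). Higher in NR350 were C12D8.24, over the pseudogene C12D8.3, and F43C11.14, which overlaps no gene. C12D8.24 was 6.94 and 5.90 in NR350 against 4.32 and 4.35 in N2 (2.08 ± 0.20, SE; limma adjusted p = 0.00015). F43C11.14 was 7.14 and 6.70 against 5.40 and 5.45 (1.49 ± 0.17, SE; limma adjusted p = 0.00036), and it was higher in TU3401 too, by 0.95 (limma adjusted p = 0.036).

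T04C12.26, inside the actin gene act-3, rose by 0.76 in NR350 and F56F11.7, inside klf-1, by 0.72. T04C12.26 was 9.55 and 8.72 in NR350 against 8.48 and 8.27 in N2, so the strains do not overlap, but it was also near 9.1 in VP303 and TU3401. Actin genes are near-identical in sequence, and signal of T04C12.26 cannot be told apart from that of act-3 messenger RNA. Without a variance trend in the fit 7 short noncoding features were lower in NR350 and 3 higher, where 6.49% and 6.54% of features above 5 were. In that fit the lower count did not exceed the share over features above 5.

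In TU3401, 12 short noncoding features were higher than in N2 and 1 was lower, where 0.879% and 0.613% of features above 5 were. The median difference of the 199 features was 0.17, and 135 of them were above 0, against a median of -0.10 over the 8648 features. Without a variance trend in the fit 0 were higher and 0 lower, where 0.22% and 0.208% of features above 5 were, and the lower call was also lost with quantile normalization or a robust prior. ZK131.14, inside the histone gene his-16, was 9.75 and 9.63 in TU3401 (labelled ash-2, then control), against 7.55 and 8.15 in N2. It rose by 1.84 ± 0.21 (SE; limma adjusted p = 0.0023), and the highest value in the other 3 strains was 8.48.

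Of the 5S rRNA genes, rrn-4.3 was 7.29 and 7.21 in TU3401 against 5.90 and 5.64 in N2 (1.48 ± 0.17, SE; limma adjusted p = 0.0027), and rrn-4.4 rose by 0.59 (limma adjusted p = 0.029). The feature of rrn-4.5 went the opposite way in its 8 values, with r = -0.58 against rrn-4.4 and r = -0.75 against rrn-4.3, and 0.86 between the other two. These are neighbouring copies of a repeated gene, so the 3 features are not 3 independent measurements of 5S rRNA.

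R151.16, over the snoRNA gene R151.11 inside the ribosomal protein gene rpl-6, was 10.26 and 10.33 in TU3401 against 8.94 and 9.26 in N2, a rise of 1.19 (limma adjusted p = 0.0060), while the rpl-6 feature differed by 0.18 (limma adjusted p = 0.38). K07C5.17, over a snoRNA gene inside nol-56, whose protein binds such RNAs, rose by 0.86 while the nol-56 feature differed by -0.04. T27A10.8, at the yolk protein gene vit-3, rose by 1.13 (limma adjusted p = 0.048). F59D8.3, at vit-4, correlated with T27A10.8 at r = 0.94 over the 8 arrays, and its correlation with the vit-4 feature was -0.31.

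F41H8.5, M01E10.4, D1081.18, F11E6.21 and T03G6.4 completed the higher set with 1.099, 1.07, 0.91, 0.88 and 0.75.

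**Figure D5:**
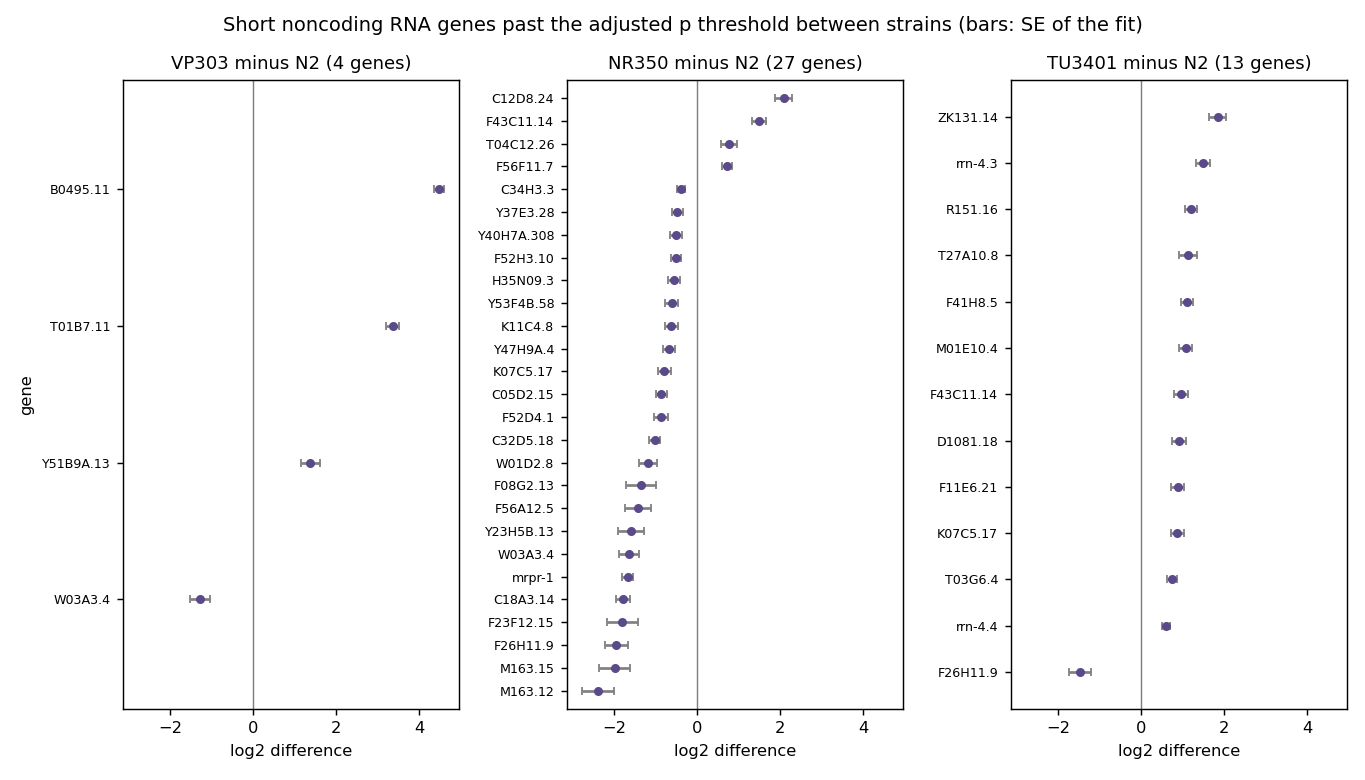
Log2 difference from N2 (horizontal axes, the same range in each panel) of the short noncoding RNA genes past an adjusted p of 0.05 in VP303 (4 genes), NR350 (27 genes) and TU3401 (13 genes); bars are the SE of the fit. VP303 has B0495.11 and T01B7.11 far to the right, NR350 has 23 genes below 0, and TU3401 has 12 above 0 and F26H11.9 below.

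The plot of differences from N2 shows calls of both signs in every strain. The 3 strain comparisons share the 2 N2 arrays. The short features of 50 to 100 bases had a median of -0.29 in NR350 and 0.18 in TU3401. Set against each feature's own mean over the 8 arrays, the median of these 84 features was -0.13 on the array labelled ash-2 against 0.07 on the control array of N2, -0.12 against 0.24 in VP303, -0.30 against -0.12 in NR350, and 0.04 against 0.12 in TU3401. The VP303 control array was thus the highest for features of 50 to 100 bases and the NR350 array labelled ash-2 the lowest. Over all 199 features the TU3401 control array was the highest, at 0.15 against 0.09 for the VP303 control array. The NR350 array labelled ash-2 was again the lowest, at -0.13. No label gives the yield of short RNA in an extraction, and its part in these differences was not tested.

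Host genes were compared with the RNAs inside them. Of 73 genes that lie wholly within a protein-coding gene, 33 had a host feature with a mean log2 above 5. Over these 33 pairs the median difference, labelled ash-2 minus control, was -0.12 for the short noncoding RNA and 0.01 for the host. Across the pairs the mean responses correlated at r = 0.27, and the differences from N2 at r = -0.28 for VP303, -0.07 for NR350 and 0.09 for TU3401, over genes that share the same 8 arrays. Within a pair, the correlation over the 8 arrays ran between -0.86 for C10H11.13 with viln-1 and 0.76 for C05D2.15 with madf-11, with a median of -0.21, and it was above 0 in 15 of the 33 pairs.

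Genes listed for the binding, transcription, processing or decay of short noncoding RNAs were looked at as 6 lists, and not all of them are partners of these RNAs. No list member passed the shared test. Medians of the mean difference were 0.08 for 11 measured genes listed as small nucleolar RNP proteins and cofactors, and 0.02 for 25 Sm, LSm and snRNP proteins. They were 0.08 for 16 genes of snRNA transcription and 0.16 for 8 of RNA polymerase III and its factors. They were 0.13 for 11 of microRNA processing and 0.06 for 17 listed under small RNA binding, 3′ processing or decay. Over the 7694 protein-coding features with a mean log2 above 5 the median was 0.04, and 39.8% were below 0. All 11 microRNA pathway genes had a mean above 0, the highest being xrn-2, a 5′ to 3′ exonuclease, with 0.26. Among the other lists the highest means were those of larp-1 (0.46), ints-1 (0.43), pro-3 (0.37), ints-2 (0.35), tftc-1 (0.33) and prp-8 (0.32), and the lowest were smi-1 (-0.25), snpc-1.1 (-0.23) and lsm-4 (-0.23).

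In NR350, 9 of the 88 list genes were lower than in N2 and 2 were higher, which is 10.2% and 2.27%, where 8.79% and 9.11% of features above 5 were. The lower share is thus close to the background. The genes lsm-6 (-0.73), lsm-8 (-0.52), smn-1 (-0.70) and sna-2 (-0.47), all of snRNP assembly or the spliced leader particle, were among the 9, as were snpc-3.4 (-0.81), tftc-5 (-0.76), exos-3 (-0.82), pash-1 (-0.68) and lin-28 (-0.70). The Argonaute alg-1 (0.99) and the Integrator subunit ints-8 (0.67) were higher. In VP303 1 list member passed, the Sm protein gene snr-2, with 0.72 (limma adjusted p = 0.040), and none passed in TU3401.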

How the data were processed

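Scanning in GeneChip Command Console 2.0 and processing in GeneSpring GX 11.0.2 are named in the series' design text, and RMA in the submitters' processing notes. The deposited values are linear intensity values with a floor near 18. No source used here gives the settings of RMA or the probe strand. The deposited intensity was converted to log2 without an offset, so differences near the floor are understated. Platform symbols and gene identifiers were matched to the RefSeq table of WBcel235, used only for names, types, lengths and which genes overlap or adjoin: 25546 features had 1 symbol, and 25495 of these matched.

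Limma 3.58.1 in R 4.3.3 (lmFit, eBayes with trend) fitted all 27792 features, two-sided, with Benjamini-Hochberg adjustment: treatment blocked by strain (3 residual degrees of freedom), treatment by class (2), and strain with treatment as a term. The scripts were tested on simulated data. Arrays of a strain share that strain, and their deviations correlated at 0.684 for N2, 0.574 for VP303, 0.839 for NR350 and 0.525 for TU3401. Members and lists were chosen with earlier results of these data known. Genes named are those highest in level, in shared, class, strain or within-strain differences, named RNA classes, threshold neighbours and list extremes. Others named were chosen after their values were seen. The number of arrays limits the precision. Alternatives covered normalization, centring, dim features, the variance prior, the floor, the thresholds and leaving out a strain.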

Additional observations from a re-analysis of the deposited data

Results flagged for a closer look

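For 7 named genes both strains whose RNAi reaches the intestine by the labels (N2 and VP303) moved one way on the arrays labelled ash-2, and both other strains the opposite way. The values are the response of N2 and VP303 minus that of NR350 and TU3401 on the log2 scale. It was -1.73 for C04E7.7 in a tRNA locus, -0.68 for ZK131.14 inside his-16, -0.49 for F43C11.14, -0.45 for F23H12.17 and -0.36 for the 5S rRNA gene rrn-4.5, which were lower in N2 and VP303 and higher in NR350 and TU3401. It was 0.84 for Y62F5A.15 over mir-39 and 0.63 for F33A8.11, which ran the other way. None passed the limma test of the class contrast, and each rests on 1 array per strain and treatment. Over all 199 features, 16 (8.04%) were lower in N2 and VP303 and higher in the others, and 3 (1.51%) the reverse, against 3.57% and 6.52% of features above 5.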

How the results depend on the processing

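Where a result moved, the cause was not tested beyond what the alternative itself changes. Of 925 alternative values for 79 results on single genes, 862 kept direction and side of the threshold, 32 newly passed, 17 no longer passed and 14 reversed. Shared calls were 1 lower with 1-symbol features and 0 to 6 with a strain left out. Without the strain block (no replicate block) they stayed at 0. Class calls on the lower side were 8 with dim features removed, 1 with 1-symbol features, 3 at an adjusted p under 0.10 and 0 to 11 with a strain left out. For VP303 against N2, higher calls were 6 with dim features removed, 5 at 0.10, 1 for members above 6 and 3 to 5 with a strain left out; lower calls were 0 without a variance trend and 1 to 5 with a strain left out. NR350 had 2 higher for members above 6 and 7 lower without a trend. TU3401 had 0 higher without a trend, and lower calls of 0 with quantile normalization, no trend or a robust prior, 2 on log2 of intensity minus 16 and 3 at 0.10.

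At 1.5-fold the within-strain counts were 1 higher and 30 lower in N2, 35 lower in VP303, 8 and 18 in NR350 and 14 and 16 in TU3401. On log2 of intensity minus 16 they were 20 lower in VP303, 4 higher and 17 lower in NR350 and 8 lower in TU3401, and for members above 6 they were 7 lower in VP303 and 0 higher in NR350. Median responses for members above 6 were -0.29 in N2, -0.38 in VP303, -0.22 in NR350, 0.015 in TU3401 (reversed) and -0.23 over strains, and -0.34 at 50 to 100 bases. On log2 of intensity minus 16 they were -0.20 in N2, -0.29 in VP303 and -0.34 at 50 to 100 bases.

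With a strain left out, mean responses ranged over both signs for ZK265.11 (-0.13 without TU3401 to 0.20), Y51H7BR.9 (-0.48 to 0.066 without VP303), C04E7.7 (-0.45 without TU3401 to 0.38), T18H9.10 (-0.14 without N2 to 0.13), K07A12.9 (-0.41 to 0.032 without TU3401), K08A8.9 (-0.037 without VP303 to 0.14), F59D8.3 (-0.24 without NR350 to 0.16), F52B5.10 (-0.075 without NR350 to 0.24), K03F8.3 (-0.35 without TU3401 to 0.25) and K11H3.11 (-0.30 without TU3401 to 0.17). Quantile normalization reversed T18H9.10 (-0.0069) and K03F8.3 (-0.0036). Leaving out N2 or the strain itself gave no value for a strain comparison. All choices named here were planned; signal close to the floor limits differences of dim features.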
